A study of Mus musculus with 4 samples.

Results

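Genes of the cell cycle and of mitosis were examined in mouse embryonic stem (ES) cells with a hairpin against Fmr1, in a study of the role of FMRP, the RNA-binding protein that Fmr1 encodes. The list of 38 genes was given by symbol and not picked by measured values, though earlier results of these data were known. It holds cyclins, cyclin-dependent kinases (CDKs), replication licensing factors and mitotic regulators. Of these, 37 were measured among 19083 genes, and Ccnb1 had no feature with its symbol alone. Each of 4 Agilent 2-colour arrays set RNA of cells with a hairpin against exon 1 of Fmr1 (shFmr1) against RNA of cells with a random hairpin (shCT), so the groups differed in the hairpin and shared the GFP lentivirus, the sorting and the cell type. Both populations were mixed and not clonal. Neither the ES cell line nor separate cultures for the replicates are given in the labels, so a p-value here covers the spread between 4 arrays, part or all of which may be technical. On replicates 1 and 3 the shFmr1 RNA was labelled with Cy5, and on replicates 2 and 4 with Cy3. By their titles the arrays lay on 1 slide.

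Values are the authors' deposited log ratios, read as log2 ratios of shFmr1 over shCT, and the direction is called likely because the targeted gene was negative on each array. If they are natural logs, every value would be 1.44 times larger on the log2 scale. They are ratios and not levels, so neither the abundance of a transcript nor the presence of ES cell markers could be read from them. In RNA of a whole culture, fewer cells in a phase and less RNA per cell cannot be told apart. Fmr1 read -0.86, -1.65, -1.34 and -1.61 on replicates 1 to 4, with a mean of -1.37 ± 0.36 (SD, n = 4) and a limma adjusted p of 0.156. The exact two-sided sign-flip permutation test gave p = 0.125, the smallest that 4 arrays allow. With dye in the fit and 1 residual degree of freedom, the Fmr1 ratio was -1.49 without replicate 1 and -1.36 without replicate 2. Fmr1 passed the adjusted threshold of 0.05 in both of these fits, but not when the same arrays were left out without a dye term.

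Progress through the cell cycle is driven by CDKs, whose activity depends on cyclins made and destroyed in turn. D-type cyclins with CDK4 or CDK6 and E-type cyclins with CDK2 phosphorylate RB and so release E2F factors, which switch on the genes of DNA replication. Cyclin A and cyclin B with CDK1 then drive mitosis, in which Aurora and Polo-like kinases, kinetochore proteins and the spindle checkpoint control chromosome segregation. Mouse ES cells divide rapidly, with a short G1 phase.

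The cell cycle genes showed no difference between shFmr1 and shCT cells that passed the test. None of the 37 members passed an adjusted p of 0.05 (limma, Benjamini-Hochberg over all genes), where 0% of all genes did. None had an unadjusted p under 0.05 either, against 3.77% of all genes, and the smallest were 0.120 for Top2a and 0.127 for E2f1. The member means ran from -0.18 for Cdk6 to 0.24 for E2f1, with a median of -0.01, and 20 of 37 were below 0, against 50.5% of all genes. None of the 37 means lay beyond a 1.2-fold difference, as 6.30% of all genes did. The ratio had the same sign on every array only for Birc5, 1 of 37, against 11.3% of all genes.

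The 95% confidence interval of the fit, not adjusted for the number of genes, lay within a 1.5-fold difference either way for 36 of 37 members, against 93.0% of all genes. The exception was Ccnd2. The median half-width of the members' intervals was 0.23 on the log2 scale, a factor of 1.18. The members' median SD over the arrays was 0.18, beside 0.21 over all genes. It was 0.22 for the 21 members grouped under G1 and S phase and 0.14 for the 16 grouped under G2 and mitosis. The latter include Ccna2 and Top2a, whose listed roles also take in S phase or DNA synthesis.

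**Figure D1:**
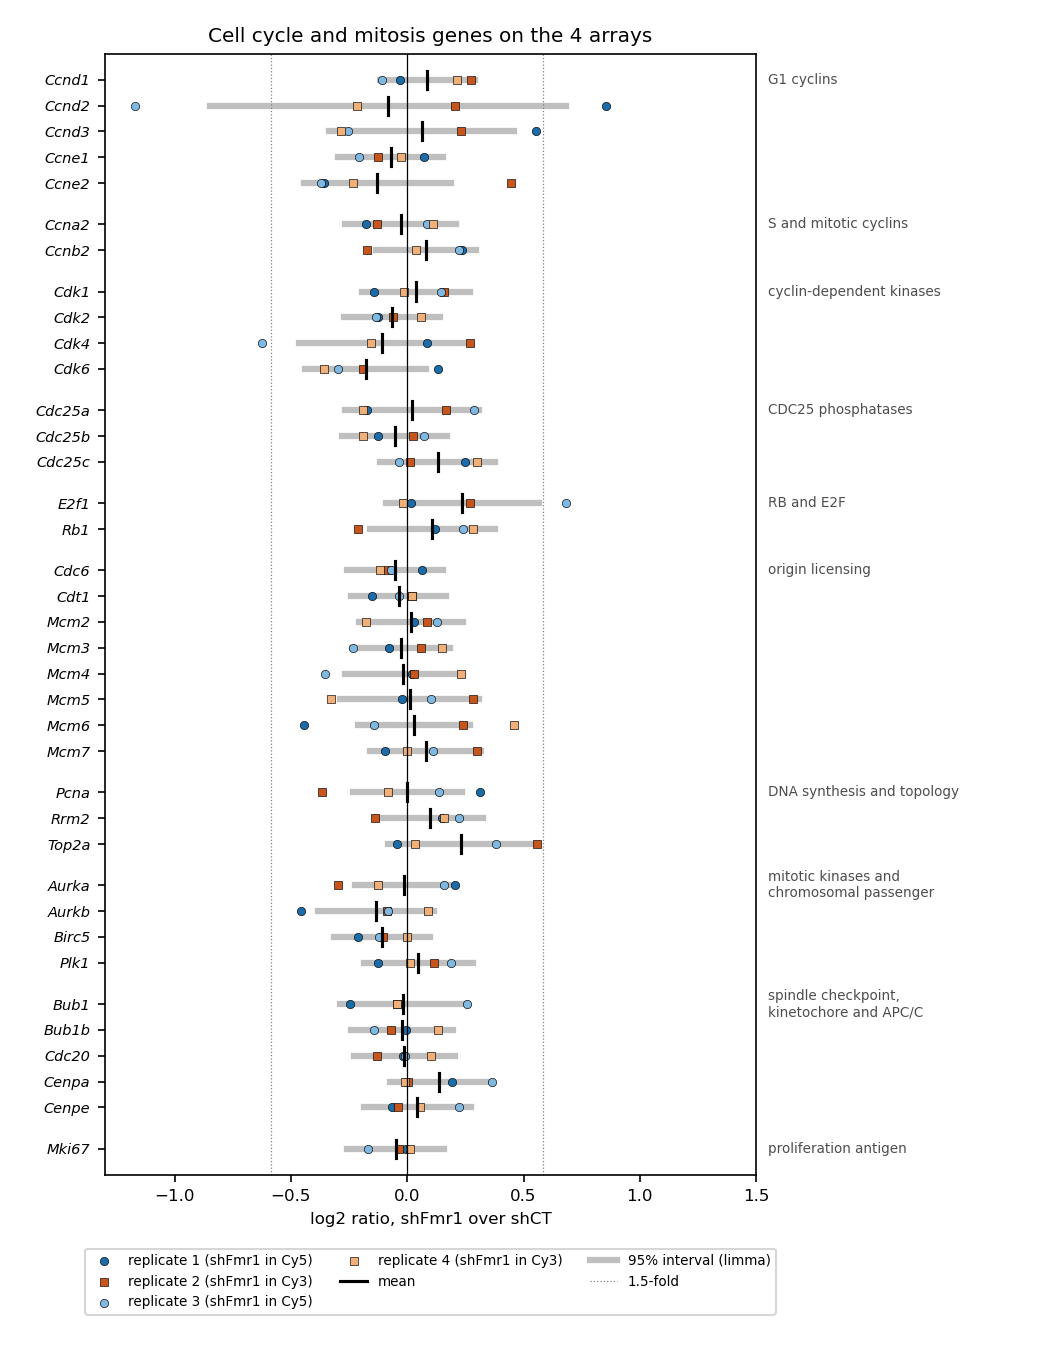
Log2 ratios of shFmr1 over shCT for the 37 measured members, by role. Points are the 4 arrays (circles with shFmr1 in Cy5, squares in Cy3), black ticks the means, grey bars the 95% limma intervals and dotted lines a 1.5-fold difference. The intervals all include 0, and that of Ccnd2 alone crosses the 1.5-fold lines.

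**Figure D2:**
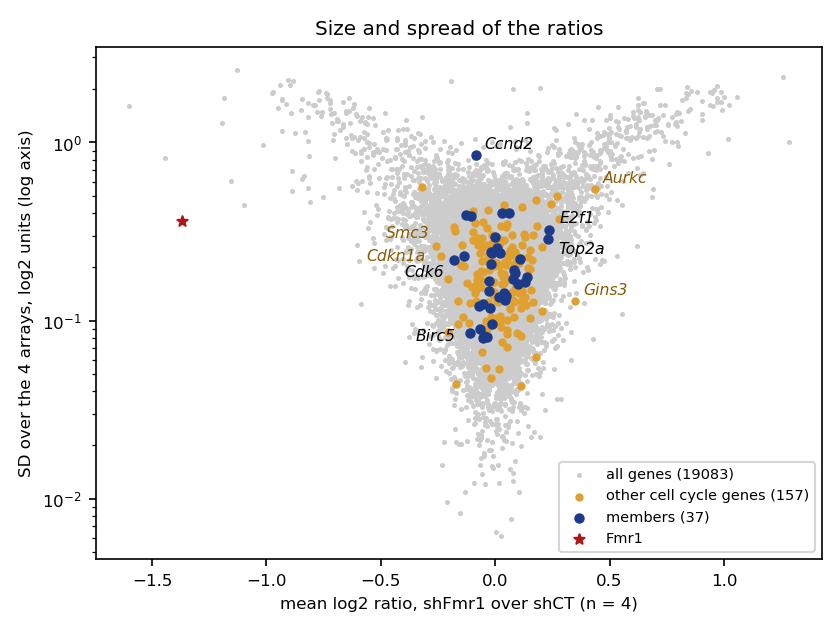
Mean log2 ratio over the 4 arrays (x axis) against the SD over the arrays (y axis, log scale), for all 19083 genes (grey), 157 other cell cycle genes (orange) and the 37 members (blue), with Fmr1 as a star. The members lie between -0.18 and 0.24, and Ccnd2 stands above the others with an SD of 0.85.

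What the members share in sequence was read from their promoters, each 250 bases before to 50 bases after the gene's start (RefSeq, GRCm38.p6). A promoter was at hand for 29 members. Both strands were searched for the E2F site (TTTCCCGC, TTTCGCGC, TTTGCCGC or TTTGGCGC), for the cell cycle homology region or CHR (TTTGAA), and for the CCAAT box (CCAAT). The E2F site binds E2F factors, and the CHR binds the MuvB-containing complexes that time the expression of mitotic genes. Of the 29 members with a promoter, 9 held the E2F site in any promoter listed, 31.0%, against 2.61% of 27025 genes. The CHR was held by 10, 34.5%, against 20.2%, and the CCAAT box by 22, 75.9%, against 41.1%. Of the 14 E2F matches 1 overlapped a CCAAT box, and no E2F match overlapped a CHR.

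The E2F site was found for Mcm3, Mcm5, Mcm6, Mcm7, Cdc6, Cdt1, Cdk1, Cdk2 and Cdc25a, and the CHR for Top2a, Cenpa, Ccnb2, Mki67, Plk1, Cdk1, Bub1b, Mcm2, Aurka and Cdc20. The median ratio was 0.01 for the members with an E2F site, with 4 of 9 below 0, and 0.03 for those with a CHR, with 4 of 10 below 0. A match is a description of these letters and not evidence of binding. The promoters of the members with each motif that had the largest mean ratios in size are printed 5′ to 3′, with E2F and CHR matches on either strand in capitals. Mcm7 (chr5:138171834-138172133, minus strand), 1 of 2 promoters listed for the gene, has E2F matches that begin 165 bases before and 16 bases after the start, and Cdk2 (chr10:128705002-128705301, minus strand) has 1 that begins 140 bases before it. Top2a (chr11:99024140-99024439, minus strand) has CHR matches 179 and 23 bases before the start, and Cenpa (chr5:30666636-30666935, plus strand) has 1 that begins 16 bases after it.
Mcm7: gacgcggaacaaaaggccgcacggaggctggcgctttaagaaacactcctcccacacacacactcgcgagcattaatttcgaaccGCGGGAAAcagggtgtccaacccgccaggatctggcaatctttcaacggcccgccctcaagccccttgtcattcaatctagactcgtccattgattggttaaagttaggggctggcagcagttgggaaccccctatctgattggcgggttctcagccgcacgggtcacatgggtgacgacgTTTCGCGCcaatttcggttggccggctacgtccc
Cdk2: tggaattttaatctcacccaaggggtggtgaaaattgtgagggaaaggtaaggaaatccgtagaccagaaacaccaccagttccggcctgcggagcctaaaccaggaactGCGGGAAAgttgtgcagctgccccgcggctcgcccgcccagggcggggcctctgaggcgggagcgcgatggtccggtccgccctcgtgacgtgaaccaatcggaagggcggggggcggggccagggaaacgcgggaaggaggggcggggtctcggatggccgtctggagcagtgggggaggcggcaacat
Top2a: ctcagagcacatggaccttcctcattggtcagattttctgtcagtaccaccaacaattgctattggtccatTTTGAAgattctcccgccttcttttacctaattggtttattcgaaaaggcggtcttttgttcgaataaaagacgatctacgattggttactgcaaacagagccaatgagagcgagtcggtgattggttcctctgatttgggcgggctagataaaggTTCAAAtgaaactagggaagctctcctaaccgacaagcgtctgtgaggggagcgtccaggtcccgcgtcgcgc
Cenpa: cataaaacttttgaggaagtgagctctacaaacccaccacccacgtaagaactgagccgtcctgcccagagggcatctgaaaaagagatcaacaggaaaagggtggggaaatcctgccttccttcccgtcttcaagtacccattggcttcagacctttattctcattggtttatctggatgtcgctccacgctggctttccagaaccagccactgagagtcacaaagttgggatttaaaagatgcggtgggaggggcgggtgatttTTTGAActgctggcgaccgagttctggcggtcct

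None of the 5 G1 cyclins passed the test, and Ccnd2 had the largest spread over the arrays of all 37 members. Ccnd2, cyclin D2 (chr6:127125162-127152188 in GRCm38.p6), read 0.85, 0.20, -1.17 and -0.22 on replicates 1 to 4. Its mean was -0.08 ± 0.85 (n = 4), with a 95% interval from -0.85 to 0.68 and a limma adjusted p of 0.991, and 98.2% of all genes had a smaller SD. The highest and the lowest array, replicates 1 and 3, carried shFmr1 in the same dye. The 3 Ccnd2 features read 1.04, 0.81 and 0.71 on replicate 1 and -1.93, -0.86 and -0.72 on replicate 3, so they had the same sign on both arrays. Without replicate 1 the fitted Ccnd2 ratio was -0.59 and without replicate 3 it was 0.42.

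Ccnd3, cyclin D3, read 0.56, 0.23, -0.25 and -0.28 from its 1 feature, with a mean of 0.06 ± 0.40. Unlike Ccnd1, it was above 0 on replicates 1 and 2 and below 0 on replicates 3 and 4, as Ccnd2 and Cdk4 were. Markers of embryonic fibroblasts, cells that often serve as feeders for ES cultures, also had higher medians on replicates 1 and 2 than on replicates 3 and 4. The 12 measured of 12 listed had medians of 0.36, 0.28, 0.06 and -0.21 on replicates 1 to 4, but the genes were not alike. For 6 of the 12 both values on replicates 1 and 2 lay above both on replicates 3 and 4. The same order was seen for 3 of 17 endoderm markers, 2 of 6 neural progenitor markers and 1 of 8 ES cell markers. Its share over all genes was not counted, so whether 6 of 12 is unusual cannot be said. Col1a1 had the widest range, at 2.19, 0.54, -0.05 and -0.99, while Thy1 ran the other way, at -0.45, -0.30, -0.27 and 0.29. Col5a1, Postn and Thy1 were highest on replicate 4. The part of these markers in the cyclin D ratios was not tested.

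The other G1 cyclins varied less between arrays than Ccnd2. Ccnd1, cyclin D1, averaged 0.09 ± 0.19 over 10 features and was above 0 on the arrays with shFmr1 in Cy3 (0.27 and 0.21) and below 0 on those with it in Cy5 (-0.03 and -0.11). Ccne1, cyclin E1, averaged -0.07 ± 0.12. Ccne2, cyclin E2, read -0.36, 0.45, -0.37 and -0.24, with a mean of -0.13 ± 0.39 and an adjusted p of 0.973 (limma). Only replicate 2 was above 0 for Ccne2. Its 2 features differed, at 0.05 and 0.84 on replicate 2 and at 0.00 and -0.72 on replicate 1. On replicate 3 all 5 G1 cyclins were below 0, while on replicate 1 the number was 2, on replicate 2 it was 1 and on replicate 4 it was 4.

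The kinases that pair with these cyclins gave the lowest member mean. Cdk6 read 0.13, -0.19, -0.30 and -0.36, with a mean of -0.18 ± 0.22 and a 95% interval from -0.44 to 0.08 (limma adjusted p = 0.973). Replicate 1 alone was above 0, and the 3 features disagreed, with means of -0.40, -0.22 and 0.08. Cdk4 read 0.08, 0.27, -0.63 and -0.16 from 1 feature (-0.11 ± 0.39), with replicate 3 the lowest by far. Cdk2, the partner of cyclins E and A, averaged -0.07 ± 0.09. Cdk1, the mitotic kinase, averaged 0.04 ± 0.14.

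The RB and E2F pair had the highest member. E2f1 (chr2:154559400-154569892), a transcription factor that drives S-phase genes, read 0.02, 0.27, 0.68 and -0.02. The mean was 0.24 ± 0.32, 1.18-fold higher, with a 95% interval from -0.09 to 0.57 (limma adjusted p = 0.973). Replicates 1 and 4 were near 0 and replicate 3 was the highest. Rb1, the retinoblastoma gene whose protein restrains E2F, read 0.12, -0.21, 0.24 and 0.28, with a mean of 0.11 ± 0.22, and was below 0 on replicate 2 only.

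E2f1, Rb1, Ccnd1 and Pcna were each measured by 10 or 11 features that the annotation gives the same accession, which allows the spread between arrays to be set beside that between features. On replicate 3 all 11 E2f1 features were above 0, from 0.16 to 1.16, with an SD between features of 0.30. On replicate 4 they had an SD of 0.15, with 7 of 11 below 0. Pcna, the sliding clamp of DNA polymerases, was above 0 in all 10 features on replicate 1 (mean 0.31, SD between features 0.06) and below 0 in all 10 on replicate 2 (mean -0.37, SD 0.09). The Pcna ratio thus differed between arrays by more than its features did within them, yet its mean over the 4 arrays was 0.00 in size at 2 decimals, with an interval from -0.23 to 0.23. One Rb1 feature read 1.81 on replicate 4, where the median of the 11 was 0.14.

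**Figure D3:**
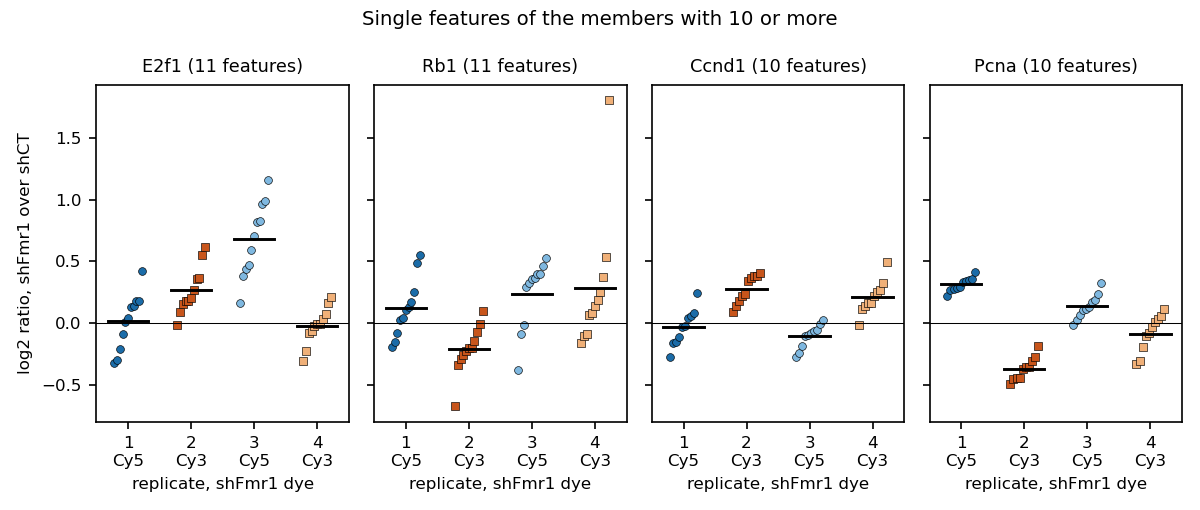
Log2 ratios of the single features of E2f1, Rb1, Ccnd1 and Pcna on each array, with black lines at the gene's mean. The 10 Pcna features lie above 0 on replicate 1 and below 0 on replicate 2, and the 11 E2f1 features lie above 0 on replicate 3.

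The genes of origin licensing, which load the MCM helicase on replication origins in G1, showed small means. Of 8 members 4 were below 0, and the means ran from -0.05 for Cdc6 to 0.08 for Mcm7. The loading factors Cdc6 and Cdt1 averaged -0.05 ± 0.08 and -0.04 ± 0.08, among the smallest SDs of the members. The helicase subunits Mcm2, Mcm3, Mcm4 and Mcm5 averaged 0.02 ± 0.14, -0.03 ± 0.17, -0.02 ± 0.24 and 0.01 ± 0.26, and Mcm7 averaged 0.08 ± 0.17.

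Mcm6, another helicase subunit, read -0.44, 0.24, -0.14 and 0.46 from 1 feature, with a mean of 0.03 ± 0.40. It was below 0 with shFmr1 in Cy5 and above 0 with it in Cy3, and its dye coefficient had an unadjusted limma p of 0.0174. Mcm6 was the only member with an unadjusted p under 0.05 for dye, 1 of 37 against 6.49% of all genes. Aurka and Pcna were next, with 0.0630 and 0.0564, and were high with shFmr1 in Cy5. The arrays of one orientation lay wholly above those of the other for 13 of 37 members, against 39.2% of all genes.

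**Figure D4:**
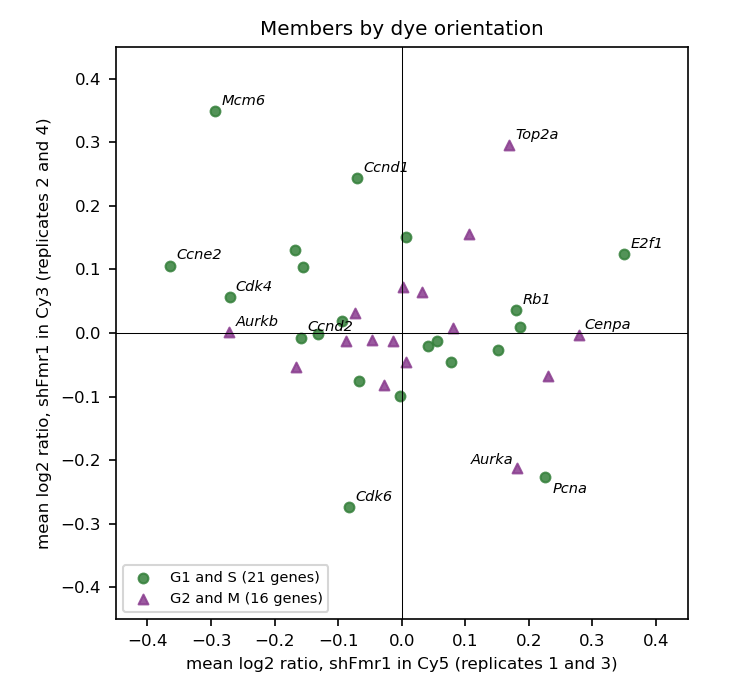
Mean log2 ratio of each member on the arrays with shFmr1 in Cy5 (x axis) and in Cy3 (y axis), each over 2 arrays, with circles for G1 and S genes and triangles for G2 and M genes. Mcm6 and Ccnd1 lie at upper left and Pcna and Aurka at lower right, while E2f1 and Top2a are above 0 in both orientations.

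Of the other replication genes, Top2a, topoisomerase II alpha, read -0.04, 0.56, 0.38 and 0.03. The mean was 0.23 ± 0.29, with a 95% interval from -0.08 to 0.55 (limma adjusted p = 0.973). Replicates 2 and 3, of opposite dye orientation, were high. The 3 Top2a features had means of 0.15, 0.19 and 0.36. In that order they read 0.18, 0.36 and 1.14 on replicate 2 but -0.10, 0.42 and 0.82 on replicate 3. Rrm2, a subunit of ribonucleotide reductase, read 0.15, -0.14, 0.22 and 0.16, with a mean of 0.10 ± 0.16, and only replicate 2 was below 0.

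Mitotic cyclins and the CDC25 phosphatases, which remove the inhibitory phosphates of CDKs, had means from -0.05 to 0.13. Ccna2 and Ccnb2 averaged -0.03 ± 0.15 and 0.08 ± 0.19. Cdc25a and Cdc25b averaged 0.02 ± 0.24 and -0.05 ± 0.12. Cdc25c read 0.25, 0.01, -0.03 and 0.30, with a mean of 0.13 ± 0.17, and its 2 features disagreed, at -0.08 and 0.35. The latter feature and 1 of E2f1 (0.37) were the only ones of 96 member features with an unadjusted p under 0.05 when features were tested singly, against 3.68% of all features.

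Among the mitotic kinases and their partners 3 of 4 means were below 0. Aurkb, the kinase of the chromosomal passenger complex, read -0.46, -0.09, -0.08 and 0.09, with a mean of -0.13 ± 0.23 (limma adjusted p = 0.973), and replicate 1 was the lowest by far. Birc5, survivin, a subunit of the same complex, read -0.21, -0.10, -0.12 and -0.0029, with a mean of -0.11 ± 0.09 and a 95% interval from -0.32 to 0.10. Birc5 was thus below 0 on every array, by little on replicate 4. Aurka, the centrosomal Aurora kinase, averaged -0.02 ± 0.24 and Plk1, a Polo-like kinase, 0.05 ± 0.14.

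Among the spindle checkpoint and kinetochore genes Cenpa had the mean furthest from 0, but none passed the test. Cenpa, the histone H3 variant of centromeres, read 0.19, 0.00, 0.36 and -0.01, with a mean of 0.14 ± 0.18 and a 95% interval from -0.07 to 0.35. It was higher on both arrays with shFmr1 in Cy5, but its 2 features disagreed on replicate 2, at -0.31 and 0.32. Bub1 and Bub1b, checkpoint kinases, averaged -0.02 ± 0.21 and -0.02 ± 0.12, Cenpe, a kinetochore motor, 0.04 ± 0.13, and Cdc20, an activator of the anaphase-promoting complex, -0.01 ± 0.10. Mki67, which encodes the proliferation antigen Ki-67, averaged -0.05 ± 0.08, with a 95% interval from -0.26 to 0.16.

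Split by phase, the G1 and S members had medians of 0.02, 0.09, -0.11 and -0.03 on replicates 1 to 4, and the G2 and M members -0.05, -0.04, 0.11 and 0.02. The G1 and S median was the higher of the pair on replicates 1 and 2 and the lower on replicates 3 and 4. The medians over the 4 arrays were -0.00 and -0.01 in that order, beside -0.00 for all genes.

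**Figure D5:**
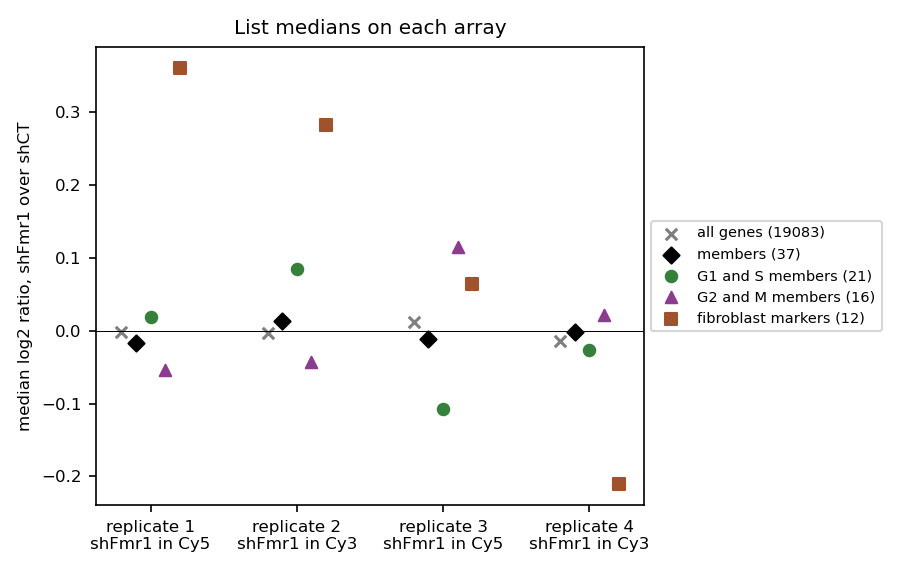
Median log2 ratio on each array for all genes, the 37 members, the 21 G1 and S members, the 16 G2 and M members and 12 fibroblast markers. The member medians lie between -0.02 and 0.01 on the 4 arrays, while the fibroblast markers go from 0.36 on replicate 1 to -0.21 on replicate 4.

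Other genes of the cell cycle, were listed by role and not by how they moved. Of 162 listed genes 157 were measured, 65 were below 0, against 50.5% of all genes, and the median was 0.02. None passed an adjusted p of 0.05 in limma, and 5 of 157 had an unadjusted p under 0.05 (3 higher and 2 lower), against 3.77% of all genes. Those higher were Gins3, Dbf4 and Aurkc, and those lower were Smc3 and Cdkn1a. The CDK inhibitors had a median of -0.05, with 5 of 7 below 0. Cdkn1a, which encodes the inhibitor p21, read -0.19, -0.32, 0.06 and -0.49 over 10 features, with a mean of -0.24 ± 0.23 (limma adjusted p = 0.973), and only replicate 3 was above 0. Cdkn2c, which encodes p18, averaged -0.16 ± 0.13 and was below 0 on each array.

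The replication origin and fork genes had a median of 0.03, with 16 of 39 below 0. Gins3, a subunit of the GINS complex of the replicative helicase, read 0.33, 0.42, 0.47 and 0.18 from 1 feature, with a mean of 0.35 ± 0.13. It was above 0 on each array and had the smallest p of the 157 genes (0.00913 before and 0.973 after adjustment in limma). Dbf4, the activating subunit of the CDC7 kinase, read -0.03, 0.33, 0.03 and 0.78 and was high only with shFmr1 in Cy3. Mcm8, a helicase of DNA repair, averaged -0.20 ± 0.17.

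Further genes, named for the smallest p-values in their direction, came from other roles. Of these only Aurkc and Smc3 had an unadjusted limma p under 0.05 (0.0463 and 0.0406). Aurkc, an Aurora kinase best known from germ cells, averaged 0.44 ± 0.55 and rested on replicate 3, at 1.23. The RB relative Rbl1, which encodes p107, averaged 0.20 ± 0.11, the cohesin subunit Rad21 0.18 ± 0.06 and the centrosomal kinase Nek2 0.17 ± 0.13. Smc3, a cohesin subunit, averaged -0.26 ± 0.26, Smc2, a condensin subunit, -0.21 ± 0.09 and E2f8, a repressive E2F, -0.17 ± 0.04. Each of these had a limma adjusted p of 0.973. The RB and E2F family had 10 of 17 genes below 0 (median -0.01), the CDK regulators 2 of 10 (median 0.04) and the passenger complex and mitotic kinase genes 2 of 7 (median 0.05). Of the 7 spindle checkpoint genes 1 was below 0 (median 0.09), and of the 16 mitotic kinesin and cytokinesis genes 4 were (median 0.04).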

How the data were processed

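Per the labels, total RNA of shFmr1 and shCT cells (0.2 µg, RNA integrity number 9) was hybridised to 4 dye-balanced arrays. The values are the authors' deposited log2 ratios, 1 per feature and array, centred on 0; the log base was not stated and is a reading, as is the direction. The normalization software is not given in the sources used here. No intensities were used here, so dim features were not filtered. Of 45214 features, 33649 had 1 symbol in the platform annotation and were averaged per gene and array. Genes were fitted with limma 3.58.1 (R 4.3.3), the ratio and dye orientation as coefficients, with Benjamini-Hochberg adjustment over 19083 genes and a threshold of 0.05. The fit was run on simulated data as a check of its estimates, with added shifts larger than any member mean. That run did not check how well small differences are detected. List symbols were matched directly or through synonyms (237 of 243). The number of arrays limits the precision.

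The members were given by symbol and not picked by their measured values. Earlier results of these data were known, however, when the members and lists were chosen. By rule, every member is named, array values are given for the 6 highest and 6 lowest means, and up to 6 other cell cycle genes are named per direction by p. Array values of Ccnd3, Ccnd1, Mcm6 and Pcna were chosen after they were seen, as were Col1a1, Thy1, Col5a1, Postn and the genes shown by feature. Alternatives covered the dye term, centring, scaling, feature summary, variance model, array weights, orientation and each array left out.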

Additional observations from a re-analysis of the deposited data

Results flagged for a closer look

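On 3 of 78 results (members, other named genes and list medians) 1 array lay apart from the other 3 by Dixon's criterion, where chance gives about 1 in 20, or 3.90. Ccne2 read 0.45 on replicate 2 and between -0.37 and -0.24 on the others. The 0.45 is the mean of 2 features, at 0.05 and 0.84, so it rests mostly on 1 of them. Rbl1 read 0.0349 on replicate 1 and between 0.25 and 0.27 on the others. The mitotic kinesin and cytokinesis genes had a median of -0.13 on replicate 1 and between 0.08 and 0.10 on the others.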

How the results depend on the processing

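None of the 37 members and none of the other cell cycle genes were called in any setting run, and in the 8 settings that kept 4 arrays and a test no member had an unadjusted limma p under 0.05 (0 genes called overall). Of the members, 33 kept their sign in the settings on 4 arrays, and 15 also when 1 array was left out. These counts leave out the settings of a single dye orientation. Some of the 15 differed in sign between the orientations, such as Ccnd1 (-0.07 in Cy5, 0.24 in Cy3) and Ccnb2 (0.23 in Cy5, -0.07 in Cy3). The median of the members became 0.0039 with the median over features and 0.0098 with 1 feature per gene. Ccnd2 turned to 0.13 with quantile normalization, 0.0088 with the median over features and 0.0534 with 1 feature per gene, and Pcna to 0.00084 with each array centred, 0.0039 with the median over features and 0.0290 with 1 feature per gene. With 1 feature per gene Cdc25c became -0.0839, Mcm3 0.0314 and Smc3 0.0681. The cause of these reversals was not tested, but 1 feature per gene leaves out the other features.

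With 1 array left out and dye still in the fit (1 residual degree of freedom), the test gave 25, 87, 10 and 0 genes called without replicates 1, 2, 3 and 4, and without a dye term 0. Members with an unadjusted p under 0.05 numbered 0 to 3, the 3 without replicate 1 being Ccnd2 (-0.59), Cdk6 (-0.29) and E2f1 (0.40), and without replicate 3 Ccnd2 read 0.42. Intervals within 1.5-fold numbered 33 to 36 and members with a dye effect 1 to 2. Fmr1 ranged from -1.53 to -1.25 and passed without replicate 1 or 2 when dye was in the fit, but not without a dye term. The median of members ranged from -0.0108 to 0.00133, the median of G1 and S members from -0.0451 to 0.0431 and the median of G2 and M members from -0.0216 to 0.0487. Members that changed sign ranged from -0.0892 to 0.0793 for Aurka, -0.14 to 0.11 for Bub1, -0.0728 to 0.0299 for Bub1b, -0.0935 to 0.0366 for Ccna2, -0.59 to 0.42 for Ccnd2, -0.14 to 0.26 for Ccnd3, -0.32 to 0.0416 for Ccne2, -0.0717 to 0.045 for Cdc20, -0.0931 to 0.14 for Cdc25a, -0.0346 to 0.11 for Cdk1, -0.28 to 0.0699 for Cdk4, -0.0657 to 0.00133 for Cdt1, -0.0283 to 0.12 for Cenpe, -0.0505 to 0.0813 for Mcm2, -0.0841 to 0.0431 for Mcm3, -0.11 to 0.0934 for Mcm4, -0.14 to 0.16 for Mcm5, -0.12 to 0.18 for Mcm6, -0.11 to 0.12 for Pcna, -0.031 to 0.13 for Plk1 and -0.0147 to 0.23 for Rb1. No paired analysis was possible because each array already sets 1 shFmr1 RNA against 1 shCT RNA and enters as 1 ratio. With no intensities, signal over background could not be read.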

Other observations

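Across the 37 members, which are not independent replicates, the ratios of one array told little of those of another. Pearson's r between pairs of arrays ran from -0.32 (replicates 1 and 3) to 0.16 (replicates 3 and 4), as a description with no test, and without Ccnd2 from -0.29 (replicates 1 and 2) to 0.06 (replicates 1 and 3). Over all genes the same pairs ran from -0.05 to 0.06. The DNA damage checkpoint kinases Atm, Atr, Chek1 and Chek2 had a median of -0.03 and the anaphase-promoting complex genes of -0.03, with 9 of 16 below 0. The 19 measured centromere and kinetochore genes had a median of 0.03 and the 15 cohesin and condensin genes of 0.02. Primitive and visceral endoderm markers are of another cell type that ES cultures can hold. Their medians were -0.33, -0.02, -0.23 and -0.09 on replicates 1 to 4, with 13 of 17 means below 0, against 50.5% of all genes. The unadjusted limma p was under 0.05 for 7 of 17, all lower, against 3.77% of all genes, and none passed the adjusted threshold. For dye it was under 0.05 for 5 of 17, against 6.49% of all genes. Earlier results of these data were known when these markers were listed, so the counts are a description and not independent evidence. The 8 ES cell markers had medians of -0.08, -0.05, 0.17 and 0.07, and 3 of 6 neural progenitor markers were below 0.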
